A study of Caenorhabditis elegans with 16 samples.

Results

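The 4 transcripts described here encode immune effectors or candidate effectors of the *C. elegans* intestine: *dod-24*, *lys-8*, *ilys-3* and *spp-18*. They were taken by name from the 8347 named genes with values, and all 4 were listed. *dod-24* had been picked because its values were low in *osm-3* mutants and higher after tunicamycin (TM), and the other members because they belong to the lysozymes and the saposin-like proteins, so that the question was whether these follow *dod-24*. Differences of *dod-24* between groups are therefore given as a description, without a test. The other members were also chosen with earlier results of these data known, which their p-values do not account for.

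RNA was sequenced from 16 libraries of whole animals, 4 replicates in each of 4 groups. These were *osm-3(dh441)IV* mutants on TM, *osm-3(dh441)IV* mutants on vehicle, WT animals on TM and WT animals on vehicle. *osm-3* encodes a kinesin motor of sensory cilia, *dh441* is a point mutation that puts an early stop codon into it, and *osm-3* itself was not analysed here. All animals were synchronized at hatching, were grown at the same temperature until day 1 of adulthood, and then spent 6 hr on plates with 10 µg/mL TM or with vehicle. TM blocks the attachment of N-glycans to new proteins and thereby causes stress in the endoplasmic reticulum. Nothing in the labels says whether replicates were separate cultures, so p-values measure the spread between these libraries. Because the samples are whole worms, a lower level in the gut and a larger share of RNA from other tissues cannot be told apart. The values also do not show in which cells the 4 transcripts lie.

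The worm gut is a tube of large epithelial cells that digests the bacteria the animal eats and, with no mobile immune cells in the body, is also its main surface of defence. It secretes lysozymes, which cleave the bacterial cell wall, and saposin-like proteins, the family that includes the caenopores, which form pores in bacterial membranes. *dod* genes were named as genes downstream of DAF-16, the FOXO factor that acts under insulin signalling, and *dod-24* encodes a secreted protein with a CUB-like domain whose transcript is often followed as a reporter of the response to pathogens.

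Between 4173301 and 8144875 reads per library fell on named genes. The values are given as normalized counts, that is whole reads recovered from the deposited values and divided by the size factor of the library, and as variance-stabilized log2 values, the scale on which differences were tested with limma over 4115 genes. On that scale the differences of genes with few reads are compressed. Of 8 intestinal markers, 7 were listed and each of these had reads in every group. *elt-2*, the GATA factor that specifies the gut, averaged 164 ± 30.4 normalized counts in *osm-3* on TM, 144 ± 17.8 in *osm-3* on vehicle, 161 ± 17.3 in WT on TM and 161 ± 46.1 in WT on vehicle (SD, n = 4 each). The other listed markers went both ways on vehicle. Means in *osm-3* and WT were 572 and 809 for *nhx-2*, 2188 and 2728 for *ifb-2*, and 1024 and 1191 for *pho-1*. They were 229110 and 271308 for *vit-5*, 127906 and 124878 for *vit-2*, and 57.2 and 43.7 for *elt-7*. Libraries with the same replicate number deviated together in several comparisons, and *osm-3* TM replicate 4 stood apart, since leaving it out raised the number of genes called between *osm-3* and WT under TM to 1596, against 792 with it.

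*dod-24* (C32H11.12) lies on the minus strand of chromosome IV at 12940106 to 12941354 (WBcel235), in 3 exons. It had 310, 271, 305 and 239 normalized counts in *osm-3* on TM. It had 70.4, 126, 73.2 and 73.6 in *osm-3* on vehicle. It had 558, 870, 939 and 497 in WT on TM, and 395, 387, 514 and 281 in WT on vehicle. The *osm-3* vehicle libraries were the lowest of all and the WT TM libraries stood at the top, with one of them below the highest WT vehicle library. Replicate 2 of *osm-3* on vehicle was above the other 3 of its group, which lay within a few counts of each other.

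The group means of *dod-24* were 281 ± 33.1 in *osm-3* on TM, 85.8 ± 26.9 in *osm-3* on vehicle, 716 ± 221 in WT on TM and 394 ± 95.1 in WT on vehicle (SD, n = 4 each). TM animals had 3.28 times the mean of vehicle animals in *osm-3* and 1.82 times in WT. *osm-3* had 0.393 times the WT mean under TM and 0.218 times under vehicle. The 4 *osm-3* libraries lay below the 4 WT libraries under each treatment, and the TM libraries of *osm-3* lay above the vehicle libraries of *osm-3*. Of all tested genes, 8.53% had every *osm-3* library below every WT library under TM and 11% under vehicle, and 1.75% had every TM library above every vehicle library in *osm-3* and 2.31% in WT. Treated *osm-3* mutants came close to untreated WT, with 0.713 times its mean, and in 2 of 16 pairs of libraries the *osm-3* TM library was the higher one.

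**Figure D1:**
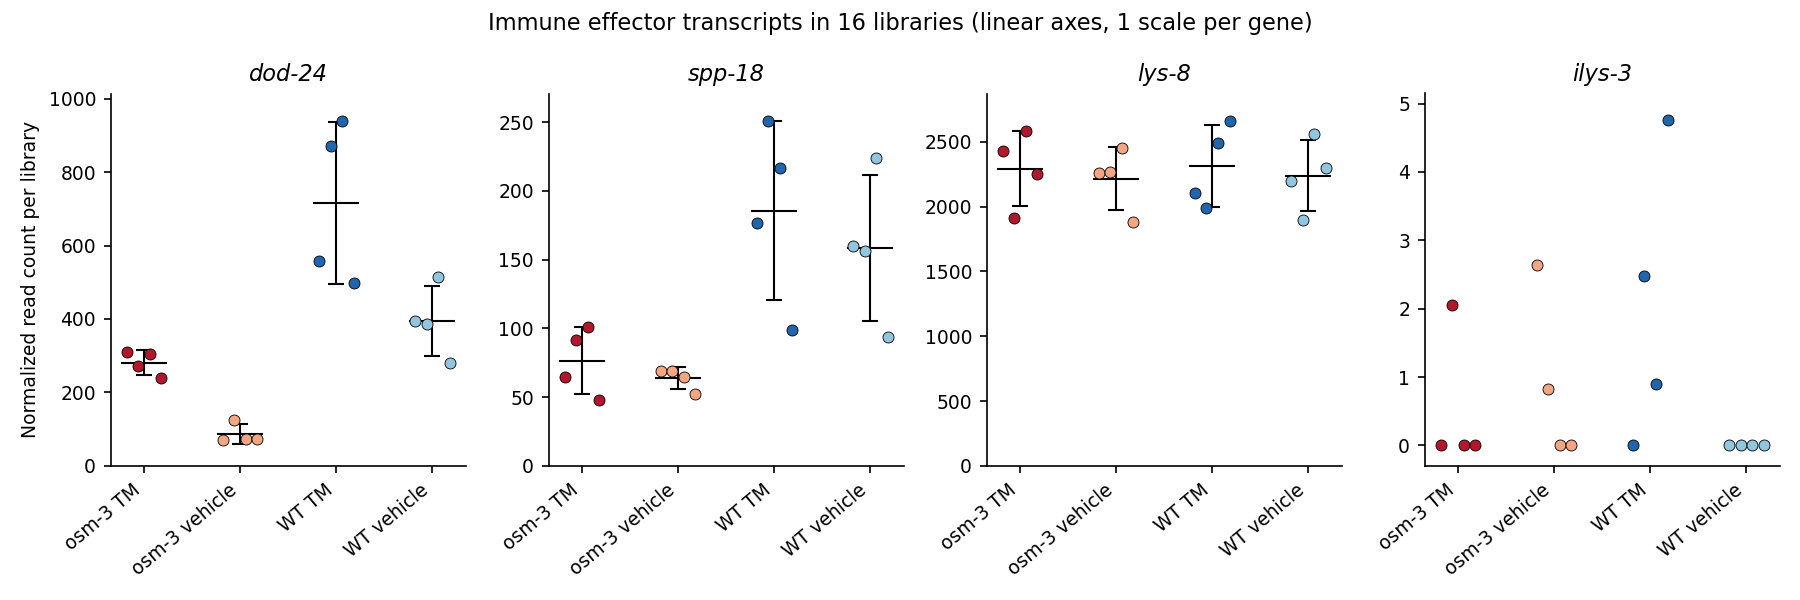
Normalized read counts of the 4 members (vertical axes, linear, a separate scale for each gene) in the 16 libraries, by group. Points are libraries in the order of their replicate number, horizontal bars are means and whiskers are SD (n = 4; not drawn for *ilys-3*, which has 0 to 5 reads). *dod-24* and *spp-18* are lower in both *osm-3* groups than in the WT group of the same treatment, with 1 overlap for *spp-18* under TM, while the groups of *lys-8* lie at the same height.

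On the variance-stabilized log2 scale, *dod-24* was 0.91 higher with TM in *osm-3* and 0.63 higher in WT, and *osm-3* minus WT was -0.94 under TM and -1.22 under vehicle. Since *dod-24* is nearest to the lowest value in *osm-3* on vehicle, the plain log2 of the normalized count plus 1 gave larger differences there, 1.74 for TM in *osm-3* and -2.20 for *osm-3* minus WT under vehicle, with 0.84 for TM in WT and -1.30 for *osm-3* minus WT under TM. When libraries with the same replicate number were set against each other, TM was the higher one in 4 of 4 pairs of each genotype, with ratios of 2.15 to 4.41 in *osm-3* and 1.41 to 2.25 in WT. Without *osm-3* vehicle replicate 2, TM minus vehicle in *osm-3* was 1.00 on the variance-stabilized scale.

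The TM response of *dod-24* in *osm-3* minus that in WT comes from the same values that the gene was chosen on and is also given without a test. It was 0.28 on the variance-stabilized log2 scale, and 0.90 on the log2 scale with a count of 1 added, where low values are less compressed. Leaving out 1 library gave 0.16 to 0.40 on the variance-stabilized scale, with the lowest value without WT TM replicate 4.

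*spp-18* (F27C8.4), a gene of the saposin-like family, lies on the plus strand of chromosome IV at 9593712 to 9594413, with 2 annotated transcripts. It had 64.4, 91.6, 101 and 48.2 normalized counts in *osm-3* on TM. It had 68.7, 69.3, 64.6 and 52.6 in *osm-3* on vehicle. It had 176, 251, 216 and 99.1 in WT on TM, and 160, 156, 224 and 93.5 in WT on vehicle. The libraries with replicate number 4 were the lowest of their group in all 4 groups, and the WT library with that number on TM was the only WT library on TM that an *osm-3* library on TM exceeded, which happened in 1 of 16 pairs.

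*spp-18* was lower in *osm-3*, and to about the same degree under each treatment. Its means were 76.4 ± 24.4 in *osm-3* on TM and 186 ± 65.2 in WT on TM, a ratio of 0.411, and 63.8 ± 7.76 in *osm-3* on vehicle and 158 ± 53.3 in WT on vehicle, a ratio of 0.403 (SD, n = 4 each). *osm-3* minus WT was -0.60 ± 0.14 on the variance-stabilized log2 scale under TM (SE; 95% interval -0.89 to -0.30; limma adjusted p = 0.00625) and -0.56 ± 0.14 under vehicle (-0.86 to -0.27; adjusted p = 0.0123). Averaged over treatments it was -0.58 ± 0.10 (-0.79 to -0.37; adjusted p = 0.000254). These p-values do not allow for the choice of *spp-18* with earlier results of these data known. Of the 2 members tested between genotypes, *lys-8* and *spp-18*, only *spp-18* fell, where 9.74% of all tested genes were called lower under TM, 4.28% under vehicle and 17% averaged over treatments.

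The fall of *spp-18* kept its call in every alternative that tested it. Adjusted p ran from 2.23e-05 to 0.0266 under TM and from 6.86e-05 to 0.0476 under vehicle, and without *osm-3* TM replicate 4 the difference under TM was -0.52 (adjusted p = 0.0125). With limma voom on the whole reads the differences were -1.29 ± 0.31 under TM and -1.24 ± 0.32 under vehicle (SE). A filter at 3 log2 units above the lowest value left *spp-18* untested, since its mean lies below it.

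For TM, no difference of *spp-18* passed the test. TM minus vehicle was 0.09 ± 0.14 in *osm-3* (SE; 95% interval -0.21 to 0.38; limma adjusted p = 0.736) and 0.12 ± 0.14 in WT (-0.18 to 0.41; adjusted p = 0.995). Averaged over genotypes it was 0.10 ± 0.10 (-0.11 to 0.31; adjusted p = 0.564) on the variance-stabilized scale. With the replicate number as a block inside each genotype, the averaged difference was 0.10 ± 0.05 (SE; limma adjusted p = 0.203). On scales that compress low values less, the averaged difference and its error were larger, at 0.21 ± 0.21 for log2 of the normalized count plus 1 (adjusted p = 0.574) and 0.21 ± 0.22 by limma voom (SE; adjusted p = 0.615). The same-number pairs pointed both ways, with TM higher in 2 of 4 pairs of *osm-3*, at ratios of 0.918 to 1.57, and in 3 of 4 pairs of WT, at ratios of 0.966 to 1.61. The response in *osm-3* minus that in WT was -0.03 ± 0.20 (-0.45 to 0.39; adjusted p = 0.971), where 0.486% of all tested genes passed.

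*lys-8* (C17G10.5), one of the *lys* family of lysozymes, lies on the plus strand of chromosome II at 5586178 to 5587651, in 3 exons, and overlaps a gene on the other strand, C17G10.13. The reads were mapped with the strand in use. It had 2426, 1914, 2580 and 2253 normalized counts in *osm-3* on TM. It had 2261, 2267, 2455 and 1877 in *osm-3* on vehicle. It had 2105, 1987, 2490 and 2659 in WT on TM, and 2200, 1899, 2562 and 2296 in WT on vehicle. The 4 groups covered the same range and overlapped in each comparison.

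The means of *lys-8* were 2293 ± 286 in *osm-3* on TM, 2215 ± 243 in *osm-3* on vehicle, 2310 ± 316 in WT on TM and 2239 ± 274 in WT on vehicle (SD, n = 4 each). Its coefficient of variation within a group was at most 13.7%, against up to 31.4% for *dod-24* and up to 35.1% for *spp-18*. *osm-3* minus WT was -0.01 ± 0.12 on the variance-stabilized log2 scale under TM (SE; 95% interval -0.26 to 0.24; limma adjusted p = 0.960) and -0.01 ± 0.12 under vehicle (-0.26 to 0.23; adjusted p = 0.966), values whose sign turned with quantile normalization or with centring on the library median. TM minus vehicle was 0.04 ± 0.12 in *osm-3* (-0.20 to 0.29; adjusted p = 0.845) and 0.04 ± 0.12 in WT (-0.21 to 0.29; adjusted p = 0.995). Averaged over genotypes, TM minus vehicle was 0.04 ± 0.08 (-0.13 to 0.22; adjusted p = 0.796). With the replicate number as a block inside each genotype it was 0.04 ± 0.06 (SE; limma adjusted p = 0.658).

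TM called 0 of the 2 tested members other than *dod-24* in either genotype, by limma and by limma voom, and 0 at an unadjusted p under 0.05. Over all tested genes 0.0729% were called in *osm-3*, 1.56% in WT and 1.7% averaged over genotypes. These shares changed when single libraries were left out. Without *osm-3* TM replicate 4, 793 genes were called in *osm-3* (against 3 with it) and 554 averaged over genotypes (against 70), and without WT TM replicate 4, 161 were called in WT (against 64) and 154 averaged. Without either library *lys-8* and *spp-18* were still not called for TM.

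**Figure D2:**
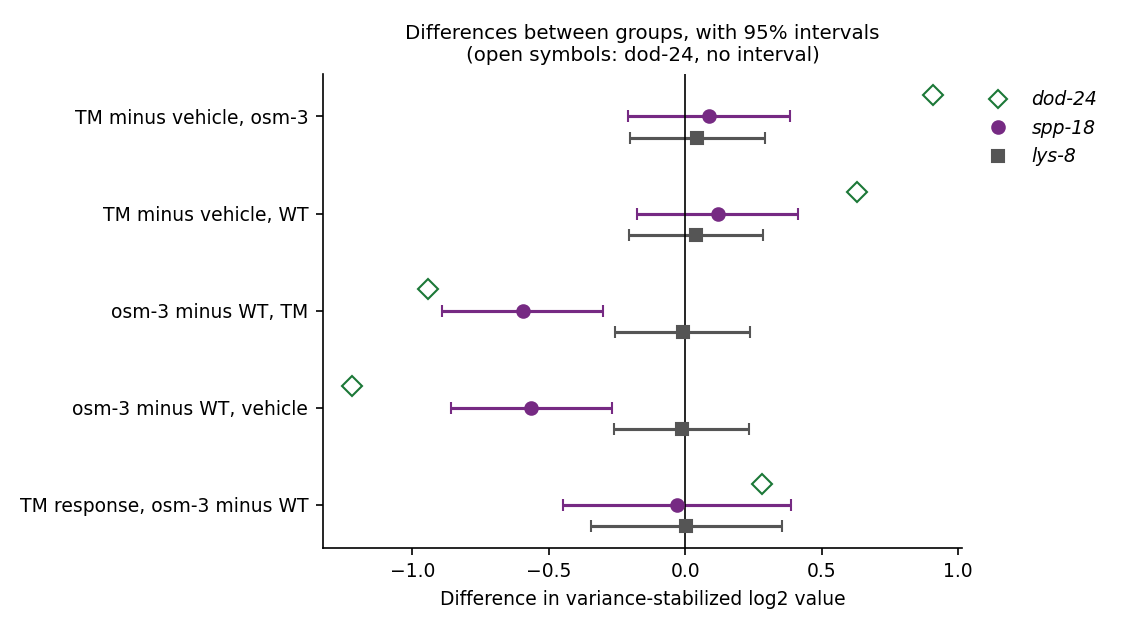
Differences in variance-stabilized log2 value (horizontal axis) for *dod-24*, *spp-18* and *lys-8* in 5 comparisons (rows), with 95% intervals from limma. Open diamonds are *dod-24*, drawn without an interval because the gene was chosen on these values. The *spp-18* intervals lie below 0 in both comparisons of *osm-3* with WT and cross 0 for TM, and all *lys-8* intervals cross 0.

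*ilys-3* (C45G7.3), an invertebrate-type lysozyme known to act in the pharynx and gut against bacteria, lies on the plus strand of chromosome IV at 2464456 to 2465443, in 4 exons. It had 0, 2, 0 and 0 reads in *osm-3* on TM and 3, 1, 0 and 0 reads in *osm-3* on vehicle. It had 0, 3, 1 and 5 reads in WT on TM and 0, 0, 0 and 0 reads in WT on vehicle. These 15 reads came from 6 of the 16 libraries. The WT vehicle libraries had none of them and the WT TM libraries had the most. A count of 0 allows up to 3 reads of a library's total, counting error only. *ilys-3* did not reach the filter on low values. When all 8347 named genes were tested, it passed in 0 of 7 comparisons by limma, and in 1 of them, TM against vehicle in WT, its unadjusted p was under 0.05 (limma adjusted p = 0.505). No fold is given, since all WT vehicle libraries are at 0.

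Per kilobase of exon, the members stood in the order *lys-8*, *dod-24*, *spp-18*, *ilys-3* in every group except *osm-3* on vehicle, where *spp-18* came before *dod-24*. *lys-8* was highest in each group, at 2364 ± 295, 2283 ± 250, 2382 ± 326 and 2308 ± 282 normalized counts per kilobase in *osm-3* on TM, *osm-3* on vehicle, WT on TM and WT on vehicle (SD, n = 4). *dod-24* came to 243 ± 28.6 in *osm-3* on TM, 74.2 ± 23.3 in *osm-3* on vehicle, 619 ± 191 in WT on TM and 341 ± 82.2 in WT on vehicle. *spp-18* came to 164 ± 52.3, 137 ± 16.7, 399 ± 140 and 340 ± 114 in the same groups. The mean ± SD of *dod-24* and of *spp-18* overlapped in *osm-3* on TM, WT on TM and WT on vehicle and did not overlap in *osm-3* on vehicle, while *lys-8* stood clear above both in every group.

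Across the 16 libraries, *dod-24* and *spp-18* went together and *lys-8* went with neither. Pearson's r between the log2 values was 0.85 for *dod-24* and *spp-18*, 0.13 for *dod-24* and *lys-8* and -0.01 for *lys-8* and *spp-18*. After the group means were taken out, the first was still 0.81 and the second 0.06. Ordered by their correlation with *dod-24*, *spp-18* was number 44 and *lys-8* number 1881 of 4114 genes. These are descriptions, since the points share libraries, depth and replicate numbers.

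**Figure D3:**
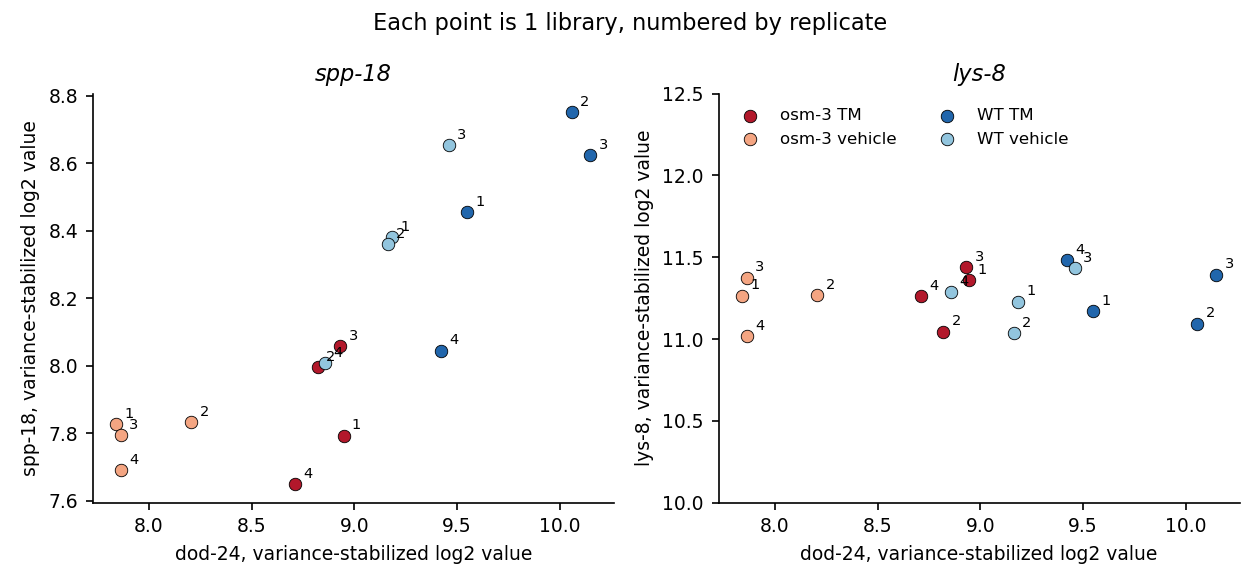
Variance-stabilized log2 values of *spp-18* (left) and *lys-8* (right) against those of *dod-24* in the 16 libraries, coloured by group and numbered by replicate. *spp-18* runs with *dod-24* (r = 0.85), also within groups (r = 0.81), while *lys-8* does not (r = 0.13). The vertical axes differ, and that of *lys-8* spans a wider range than that of *spp-18*. The r values are descriptions, since same-numbered libraries also deviated together over all tested genes in several comparisons.

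The genes whose values ran most closely with *dod-24* over the 16 libraries were *C17H12.8* (r = 0.96), *F16B12.4* (0.96), *clec-41* (0.94), which encodes a C-type lectin domain protein, *dod-20* (0.94) and *C49C8.5* (0.94). *C17H12.8* averaged 1932 ± 375 normalized counts in *osm-3* on TM, 665 ± 370 in *osm-3* on vehicle, 4030 ± 1286 in WT on TM and 2153 ± 755 in WT on vehicle (SD, n = 4 each), the same order of groups as *dod-24*. The genes most like *spp-18* were *best-7* (r = 0.96), a bestrophin family gene, *asp-12* (0.93), an aspartyl protease family gene, *moc-3* (0.93), *C18E9.5* (0.92) and *clec-10* (0.92). *asp-12* averaged 696 ± 49.6 in *osm-3* on TM, 425 ± 113 in *osm-3* on vehicle, 2307 ± 848 in WT on TM and 2625 ± 1119 in WT on vehicle. The correlations were weaker for *lys-8*, whose closest genes were *tre-4* (r = 0.81), a trehalase, *ule-3* (0.80), *F07A11.4* (0.79), *far-1* (0.78), which encodes a fatty acid and retinol binding protein, and *C49G7.3* (0.77).

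The wider families were read from lists by gene name: *dod*, *lys* and *ilys*, *spp*, *irg* (infection response genes), *abf* and *thn* (antibacterial factors and thaumatins), and the genes of clone C32H11, which holds *dod-24*. With the members left out, 40 genes were listed with values and 17 passed the filter. TM called 0 of the 17 in *osm-3* and 0 in WT by limma and also by limma voom (3 and 3 at an unadjusted p under 0.05), and 0 averaged over genotypes (6 at an unadjusted p under 0.05). For TM in *osm-3*, in WT and averaged over genotypes, the list genes called were 1, 2 and 5 when replicate numbers entered as a block, 2, 4 and 6 with such a block inside each genotype, and 6, 5 and 9 with library weights. Of all 4115 tested genes, the block called 39, 193 and 376, the block inside each genotype 360, 244 and 617, and library weights 1423, 595 and 1751. Without *osm-3* TM replicate 4 there were 1, 0 and 4 list genes, against 793, 84 and 554 of all tested genes. Without WT TM replicate 4 there were 0, 4 and 4, against 10, 161 and 154. Without WT vehicle replicate 3 there were 0, 0 and 2, against 3, 64 and 104. Without the filter there were 0, 1 and 0 of the 40 listed genes, against 3, 89 and 96 of all 8347 named genes. Between genotypes, under TM 2 were higher and 3 lower in *osm-3* (median -0.07, against -0.10 over all tested genes, of which 19.2% were called), under vehicle 1 was higher and 5 lower (median -0.11, against -0.04; 10.6% called), and averaged over treatments 4 were higher and 5 lower (median -0.09, against -0.08; 30.3% called).

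Among the *dod* genes *dod-20* was nearest to *dod-24*. It averaged 484 ± 67.4 normalized counts in *osm-3* on TM, 301 ± 29.5 in *osm-3* on vehicle, 883 ± 273 in WT on TM and 579 ± 182 in WT on vehicle (SD, n = 4 each). *osm-3* minus WT was -0.65 under TM (limma adjusted p = 0.0123), -0.64 under vehicle (0.0184) and -0.64 averaged over treatments (0.000564). The call under vehicle was lost when WT replicate 1 (0.0648), WT replicate 3 (0.0683) or *osm-3* replicate 4 (0.0532) of the vehicle libraries was left out. Its TM minus vehicle of 0.47 averaged over genotypes had an adjusted p of 0.0530. *dod-18* averaged 282 ± 26.0, 256 ± 28.6, 288 ± 35.8 and 270 ± 24.7 in the same order of groups and was called in none of the comparisons.

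Of the nearby protein-coding genes around *dod-24* on the chromosome, only *dod-21* and *dct-19* had values, and neither shared its level. Others, such as *srlf-6*, *cld-1* and *F55G11.1*, were not in the values and could not be read. *dod-21*, at 12936738 to 12937988 on the plus strand, had 0 to 15 reads per library, and *dct-19*, at 12942933 to 12944526 on the plus strand, had 0 to 4 reads. Neither reached the filter. Of the C32H11 genes 3 of 13 were tested. *irg-6* had 90.2 to 110 normalized counts in *osm-3* on TM, 50.7 to 73.2 in *osm-3* on vehicle, 87.8 to 122 in WT on TM and 87.1 to 110 in WT on vehicle, and was lower in *osm-3* under vehicle (-0.29; limma adjusted p = 0.00715) and averaged over treatments (-0.16; 0.0151), the second of these not when each library was centred on its median (0.0612). *C32H11.4* rose in *osm-3* averaged over treatments (0.20; 0.0208), which was lost with quantile normalization (0.0706), and *C32H11.7* was called in no comparison.

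The lysozymes went in different directions. *ilys-5*, an invertebrate-type lysozyme gene and the listed gene with the most reads, averaged 9361 ± 1281 normalized counts in *osm-3* on TM, 10367 ± 1034 in *osm-3* on vehicle, 12668 ± 2326 in WT on TM and 17542 ± 2129 in WT on vehicle (SD, n = 4 each). *osm-3* minus WT was -0.75 under vehicle (limma adjusted p = 0.00114), -0.58 averaged over treatments (0.000187) and -0.42 under TM (0.0389). *lys-10* was lower in *osm-3* under vehicle (-0.85; 0.0118) and averaged over treatments (-0.63; 0.00373), at 326 ± 103 in *osm-3* on vehicle and 732 ± 228 in WT on vehicle. *lys-7*, a lysozyme used in defence against bacteria, was higher in *osm-3* under TM (0.42; 0.0427) and averaged over treatments (0.33; 0.0194), at 1882 to 2149 normalized counts in *osm-3* on TM and 1184 to 2005 in WT on TM. *ilys-4* was called in no comparison. *ilys-2*, with 1 to 27 reads per library, did not reach the filter. It averaged 4.48 ± 2.41 normalized counts in *osm-3* on TM and 2.22 ± 1.25 in *osm-3* on vehicle. In WT it averaged 17.1 ± 4.61 on TM and 4.42 ± 5.73 on vehicle.

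The calls of *ilys-5* and *lys-7* under TM lay near the threshold. That of *ilys-5* was lost when any of these was left out: replicate 1, 3 or 4 of *osm-3* on TM, replicate 3 of *osm-3* on vehicle, or replicate 2, 3 or 4 of WT on TM (adjusted p of 0.0505 to 0.108, with differences of -0.45 to -0.31). It was also lost with quantile normalization (0.0857), centring (0.0763), the stricter filter (0.0624) and a fit of the compared groups alone (0.128). That of *lys-7* was lost without replicate 1, 2 or 3 of *osm-3* on TM, replicate 1 or 3 of either vehicle group, or replicate 1 or 2 of WT on TM (0.0501 to 0.134, with differences of 0.33 to 0.43), and with the stricter filter (0.0672) and the compared groups alone (0.114).

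Of the 5 tested saposin-like genes besides *spp-18*, only *spp-8* was called. It averaged 234 ± 40.7 normalized counts in *osm-3* on TM, 252 ± 26.5 in *osm-3* on vehicle, 394 ± 47.2 in WT on TM and 338 ± 15.2 in WT on vehicle (SD, n = 4 each). *osm-3* minus WT was -0.49 under TM (limma adjusted p = 0.000274), -0.28 under vehicle (0.0370) and -0.39 averaged over treatments (6.7e-05). Under vehicle the call was lost without any one of the 4 WT vehicle libraries or without *osm-3* vehicle replicate 1, 2 or 4 (0.0577 to 0.103). *spp-10*, *spp-15*, *spp-16* and *spp-17* passed in no comparison of genotypes, with *osm-3* minus WT between -0.19 and 0.04 under TM and between -0.25 and -0.10 under vehicle.

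The other called effector genes, *irg-2* and *thn-2*, stood higher in *osm-3*, but listed genes of these families below the filter went both ways. On vehicle, mean normalized counts in *osm-3* and WT were 29.9 and 79.8 for *irg-4*, 22.5 and 52.3 for *irg-5*, and 6.43 and 21.0 for *thn-1*. They were 6.80 and 5.80 for *abf-1* and 6.35 and 2.54 for *abf-2*. These genes did not reach the filter. *irg-2* averaged 111 ± 18.5 normalized counts in *osm-3* on TM, 78.6 ± 10.1 in *osm-3* on vehicle, 67.0 ± 28.8 in WT on TM and 31.0 ± 13.3 in WT on vehicle, and *osm-3* minus WT was 0.46 under vehicle (limma adjusted p = 0.00639), 0.32 under TM (0.0399) and 0.39 averaged over treatments (0.000652). The call under TM was lost without replicate 1 of either vehicle group, replicate 1, 2 or 4 of WT on TM, or replicate 1, 2 or 3 of *osm-3* on TM (0.0507 to 0.134, with differences of 0.23 to 0.34). It was also lost with library weights (0.0728), quantile normalization (0.0543) and the compared groups alone (0.0950), and with limma voom (0.0585) and log2 of the normalized count plus 1 (0.0829), where the differences were larger, at 0.78 and 0.80. *thn-2*, a thaumatin-like gene, was higher averaged over treatments (0.37; 0.00603).

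**Figure D4:**
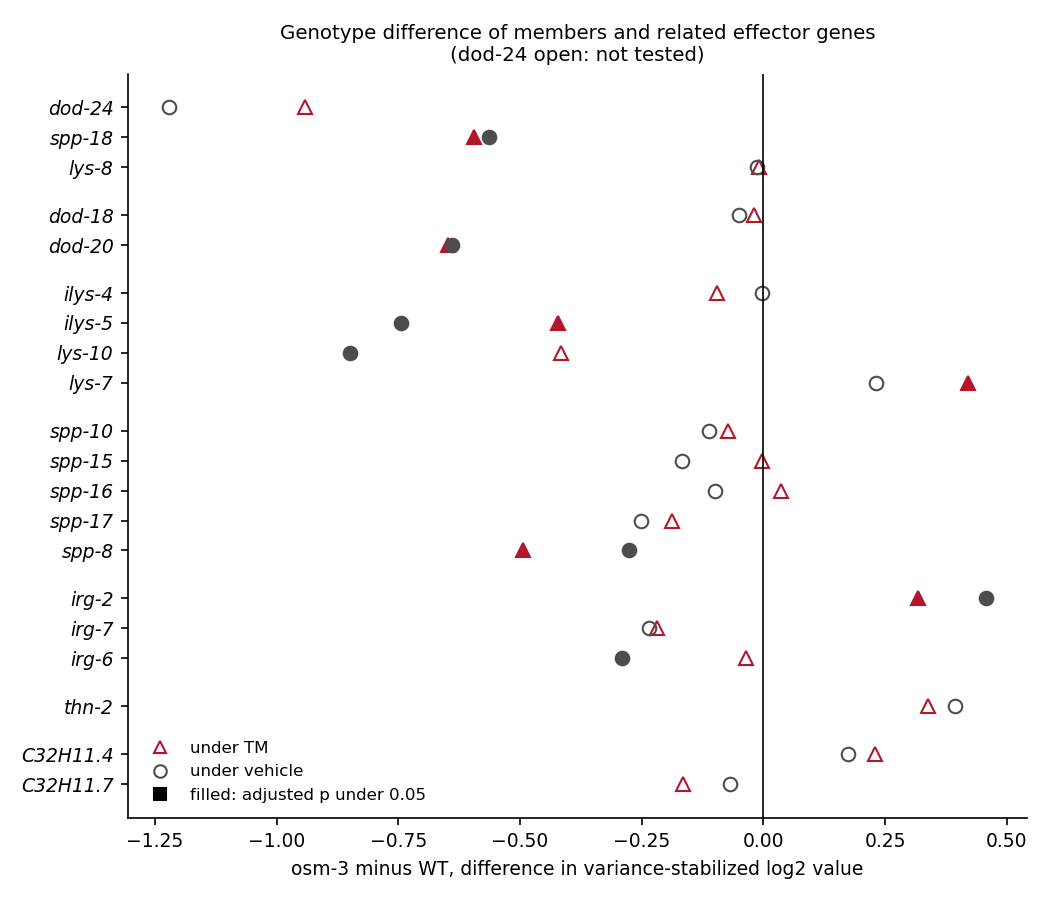
*osm-3* minus WT in variance-stabilized log2 value (horizontal axis) under TM (triangles) and under vehicle (circles) for 3 members and the 17 tested genes of the lists (rows, grouped by list). Filled symbols have a limma adjusted p under 0.05, and *dod-24* has open symbols because it was chosen for these differences. *spp-18*, *dod-20*, *ilys-5* and *spp-8* are filled on the low side in both, *irg-2* is filled on the high side in both, and *lys-8* lies at 0.

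Markers of the gut and of other cell types were read beside the genotype difference of *spp-18*. Over all tested genes, in either direction, 19.2% were called between genotypes under TM, 10.6% under vehicle and 30.3% averaged over treatments. A list of 5 or 6 genes is too short to tell 0 called from these shares. Of 6 tested intestinal markers 0 were called in *osm-3* against WT under TM and 0 under vehicle, by limma and by limma voom (1 and 1 at an unadjusted p under 0.05), and *ifb-2*, an intestinal intermediate filament, was lower averaged over treatments (-0.30; adjusted p = 0.0379). Averaged over treatments, 3 of the 6 had an unadjusted limma p under 0.05. The summed counts of the intestinal list, most of them from the yolk protein genes *vit-2* and *vit-5*, ran from 154827 to 340549 in *osm-3* on TM, 301850 to 411056 in *osm-3* on vehicle, 239347 to 394887 in WT on TM and 364690 to 451316 in WT on vehicle, and no listed marker of the gut was at 0 in a group. Sperm genes (*msp*) were higher in *osm-3* in 9 of 9 under each treatment, with summed counts of 2987 to 6464 in *osm-3* on TM, 3419 to 5699 in *osm-3* on vehicle, 692 to 992 in WT on TM and 808 to 1287 in WT on vehicle. Cuticle genes were higher in 37 of 40 under TM and in 8 of 40 under vehicle, with summed counts of 652102 to 851238, 682260 to 829016, 394806 to 525749 and 509729 to 677694 in the same order of groups. Of 4 body wall muscle genes 3 were higher averaged over treatments, and of 5 germline genes 0 were called there by limma or limma voom (1 at an unadjusted p under 0.05). The part of these cell types in the values of *spp-18* and *dod-24* was not tested.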

How the data were processed

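The authors mapped trimmed, paired, strand-specific reads of ribosome-depleted libraries to WBcel235 cDNA with kallisto 0.43.0, added up the reads of each gene, and deposited log2 values after the variance-stabilizing transformation of DESeq2 1.16.1. How the transformation was called is not given in the sources used here. The deposited log2 values could be turned back into reads, 100% of them whole to within 0.01. Of 8348 entries 1 had no name and held 0.177% to 0.531% of the reads. Not every gene of a family was in the values used here, and the authors' deposited tables of fold changes, test statistics (scores), p-values and mean counts per comparison were not used.

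Tests used limma 3.58.1 (R 4.3.3) on the log2 values, with trended eBayes and 1 mean per group, which left 12 residual degrees of freedom. Genes had to average 1 log2 unit or more over the lowest value, and 4115 did. Tests were two-sided, with Benjamini-Hochberg adjustment over these genes and a threshold of 0.05. The fit was also run on simulated counts with known changes in WT on TM alone, as a check of the computation. The simulated libraries were independent, with the same spread setting for every gene. They do not show how the fit behaves where same-numbered libraries deviate together. Gene positions come from the Ensembl annotation of WBcel235. No 2 libraries were alike within sampling noise (lowest chi-square per degree of freedom 3.88).

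The labels number the replicates without saying what the number marks. Deviations from the group means of same-numbered libraries correlated at 0.33 to 0.86 between TM and vehicle in *osm-3*, 0.25 to 0.58 in WT, and 0.18 to 0.50 between *osm-3* and WT under vehicle, and these numbers were taken to pair libraries, with the block as an alternative fit. Under TM between *osm-3* and WT they correlated at -0.04 to 0.64, so a pairing is less clear there. The block by replicate number still joined the same-numbered libraries of all 4 groups. The block inside each genotype joined only those of the same genotype.

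Named are the members, for each list and comparison up to 3 called genes with the largest rise and the largest fall, and the 5 genes most correlated with each member. The members and lists were chosen with earlier results of these data known. Genes named as not called, the neighbours and the cell type markers were added as background. Alternatives were testing all genes, a stricter filter at 3 log2 units, fitting the compared groups alone, replicate blocks, eBayes without trend or robust, library weights, quantile normalization, centring, log2 of the normalized count plus 1, limma voom on the reads, and leaving out each library.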

Additional observations from a re-analysis of the deposited data

Results flagged for a closer look

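In *osm-3* on vehicle, *dod-24* of replicate 2 had a log2 value of 8.21 (126 normalized counts), far from the other 3 libraries of its group. The reads on named genes of *osm-3* vehicle replicate 3, 4173301, were far below those of the other 3. These are 2 of 16 groups of 4 values examined, where chance gives about 1 in 20. Without *osm-3* vehicle replicate 2, *osm-3* minus WT for *dod-24* under vehicle was -1.31, and without replicate 3 it was -1.19, against -1.22 with all libraries.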

How the results depend on the processing

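The fall of *spp-18* in *osm-3* kept its call in all alternatives that tested it. The count of 1 called member of *lys-8* and *spp-18* was 0 in each comparison of genotypes under the filter at 3 log2 units, because *spp-18* was not tested there. Leaving out 1 library gave -0.74 to -0.50 for *spp-18* under TM and -0.68 to -0.46 under vehicle, and -0.17 to 0.083 for its difference between the TM responses.

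*osm-3* minus WT for *lys-8* under TM, under vehicle and averaged was 0.069, 0.048 and 0.059 with library weights, 0.126, 0.039 and 0.082 with quantile normalization, and 0.025, 0.0011 and 0.013 after centring. Leaving out 1 library gave -0.072 to 0.068, -0.083 to 0.057 and -0.046 to 0.028. For TM minus vehicle it gave -0.026 to 0.121 in *osm-3* and -0.030 to 0.103 in WT, and for the difference between the responses -0.066 to 0.082. None of these passed the threshold.

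The replicate number as a block changed no call of a member (*spp-18* averaged over treatments, adjusted p = 2.72e-06). The number of all genes called was 39 with the block and 3 without it for TM in *osm-3*, 193 and 64 for TM in WT, 1413 and 792 for *osm-3* against WT under TM, 735 and 438 under vehicle, and 35 and 20 for the difference between the responses. Over all alternatives these counts ran from 0 to 1423, 24 to 595, 165 to 1683, 52 to 1420 and 10 to 154. Called list genes were 8 of 40 without a filter under TM and 14 averaged over treatments, against 5 and 9 of 17. Over all genes, 1189 of 8347 were called without a filter between *osm-3* and WT under TM, against 792 of 4115 with it. *ilys-3*, with 15 reads in all, could be tested only without the filter.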
